A study of Homo sapiens with 8 samples.

Results

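The 9 genes described here were ARID3A, ZMIZ1, CXXC5, FAM53B, HS6ST1, IQSEC1, MEGF6, KCNJ12 and MAD1L1, out of 6993 genes in a table of converted, that is newly made, RNA from a leukaemia line, of which 5737 had a mean of at least 1 FPKM and were tested. They were chosen by their converted reads, from a list whose genes all have more converted reads in both libraries of cells induced to express a mutant HMGN1 than in all 3 libraries of vehicle-treated cells. All 9 met that condition on the deposited values. The condition used the converted reads of the mutant and vehicle libraries. For the 9 genes, every value that compares these groups is therefore a description without a test, as are their converted reads in any comparison. All 9 passed the filter on the mean, although the vehicle means of ARID3A and KCNJ12 alone, 0.68 and 0.903 FPKM, lay under it.

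The cells were NALM6, an established human precursor B-cell acute lymphoblastic leukaemia line, carrying an HMGN1 gene that doxycycline switches on. Vehicle libraries (n = 3) came from the line with wild-type HMGN1 given vehicle for 6 h, and induced wild-type libraries (n = 3) from the same line given doxycycline at 100 ng/ml for 6 h. Induced mutant libraries (n = 2) came from a line with the HMGN1 mutant S20,24E, which is deficient in nucleosome binding per the labels, given the same doxycycline. All libraries shared 4-thiouridine at 100 µM in the last 5 h and 4 µg of input RNA. Vehicle-treated mutant cells were not analysed here, so the line and the doxycycline differ together between mutant and vehicle. The labels call the libraries biological replicates without saying that they came from separate cultures, and p-values measure the spread between these libraries only.

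HMGN1 is a small protein that binds nucleosomes and is linked to open chromatin, and its gene lies on the chromosome that is present in an extra copy in Down syndrome. In SLAM-seq, cells build 4-thiouridine into new transcripts, and a chemical change of the thiol makes the base read as C instead of T, so reads with conversions mark RNA made during labelling. A gene can have more converted reads because all its reads increased, because a larger share of them was converted, or both, and the deposited tables give all reads (CPM) and a conversion rate beside the converted reads (FPKM).

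Library depth ran from 7.99 M to 17.7 M reads, with 8.89 M in vehicle A and 10.4 M in mutant A, which held the lowest and the highest converted values of most of the genes. Vehicle A also had the lowest median over tested genes in converted reads, 2.1 FPKM beside 3.21 to 4.92 FPKM in the other libraries, and mutant A had 4.17 FPKM, second to induced wild type C, where mutant B had 3.25 FPKM. The part of these library-wide differences in the values of the 9 genes was not tested, and the medians of all tested genes are given beside theirs. HMGN1 itself had 145 to 191 CPM with vehicle, 217 to 317 CPM in induced wild type and 200 to 223 CPM in induced mutant, so both induced groups lay above vehicle in all libraries of this readout. In converted reads HMGN1 ranged from 2.64 to 6.04 FPKM with vehicle and from 4.94 to 7.75 FPKM in induced wild type. The mutant range was 2.62 to 4.15 FPKM, with a lower mean than vehicle and with overlap between them. The mean conversion rate of HMGN1 was instead 1.47% for vehicle, 3.32% for mutant and 4.82% for wild type. CPM multiplied by that rate as a fraction had means of 2.33, 7.17 and 13.3 in the same order. In both of these, each induced library lay above all vehicle libraries. By limma, the product passed against vehicle for wild type (adjusted p = 0.0394) and not for mutant (adjusted p = 0.162). Why converted reads differed from these was not tested. All 13 precursor B-cell markers were at a mean of at least 1 CPM, with a summed level of 1586 to 1867 CPM over the libraries, while the 5 T-cell markers in the table and the 4 erythroid markers were all under 1 CPM. Of 6 myeloid markers, MPO, CEBPA and ITGAM were under 1 CPM, and the summed level was 422 to 517 CPM with vehicle, 365 to 440 CPM in induced wild type and 344 to 431 CPM in induced mutant. Of 4 fibroblast markers COL1A2, COL3A1 and DCN were under 1 CPM, and the summed level was at most 2.004 CPM. In bulk libraries a level per cell and a share of cells cannot be told apart.

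In converted reads the 9 genes were 2.65 to 10.5 times as high in induced mutant as in vehicle by their group means, with a median ratio of 6.90. On the log2(FPKM + 1) scale the median difference was 2.35, beside 0.17 over all 5737 tested genes, and each of the 9 was higher in both mutant libraries than in all vehicle libraries, as 20.4% of tested genes were. Induced wild type lay in between, at a median ratio to vehicle of 2.60. Mutant A had the highest value of all 8 libraries for 9 of 9 genes, and the lowest value was in vehicle A for 6 genes and in vehicle B for 3.

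3 of the 9 genes encode nuclear regulators of transcription. ARID3A is a DNA-binding protein with an AT-rich interaction domain, known in B cells as an activator of the immunoglobulin heavy-chain gene. Its converted reads were listed, for replicates A to C, at 0, 0.64 and 1.4 FPKM with vehicle, at 3.11, 4.88 and 5.54 FPKM in induced wild type and at 7.71 and 6.51 FPKM in induced mutant. No library of one group overlapped another, and the order was vehicle, wild type, mutant. The step between neighbouring low values was 0.524 FPKM in vehicle A and 0.175 FPKM in vehicle C, so a listed 0 in vehicle A is coarse.

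ZMIZ1, a PIAS-like zinc finger coactivator that works with NOTCH1 and other factors, had 9.93, 5.08 and 9.62 FPKM with vehicle, 9.57, 18.5 and 22.8 FPKM in induced wild type and 57.9 and 29.3 FPKM in induced mutant. Induced wild type A fell within the vehicle range, and the other wild-type libraries lay between vehicle and mutant. CXXC5, a zinc finger protein that binds unmethylated CpG and restrains Wnt signalling, had 0.53, 1.59 and 4.38 FPKM with vehicle, 4.67, 5.85 and 6.35 FPKM in induced wild type and 18.1 and 11.1 FPKM in induced mutant. Its groups did not overlap, although induced wild type A was only just above vehicle C.

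The next 5 genes act in signalling or at the cell surface. FAM53B, a nuclear protein of Wnt signalling linked to beta-catenin import, had 1.56, 1.28 and 3.86 FPKM with vehicle, 3.78, 4.87 and 5.95 FPKM in induced wild type and 21.4 and 11.1 FPKM in induced mutant. Induced wild type A lay below vehicle C, and both mutant libraries lay above all others. HS6ST1, which adds sulfate to heparan sulfate chains and so shapes their binding of growth factors, had 3.13, 1.9 and 3.16 FPKM with vehicle, 4.67, 9.25 and 10.5 FPKM in induced wild type and 24.3 and 13.4 FPKM in induced mutant. IQSEC1, an exchange factor that activates the small GTPase ARF6 in membrane traffic, had 2.1, 5.39 and 5.25 FPKM with vehicle, 6.88, 10.2 and 14.3 FPKM in induced wild type and 32.9 and 15.9 FPKM in induced mutant. For HS6ST1 and IQSEC1 the 3 groups did not overlap.

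MEGF6, an extracellular protein built of EGF-like repeats, was listed at 0, 1.9 and 2.28 FPKM with vehicle, at 4.22, 6.34 and 5.53 FPKM in induced wild type and at 10.1 and 9.45 FPKM in induced mutant. These groups were again separate, and the mutant libraries differed from each other by less than in any other of the 9 genes. KCNJ12 encodes the inward rectifier potassium channel Kir2.2 and has a near-identical copy, KCNJ18, which has no row of its own under that symbol in these tables, so its reads are uncertain. It had 0.53, 0.95 and 1.23 FPKM with vehicle, 1.12, 3.91 and 3.68 FPKM in induced wild type and 9.19 and 7.5 FPKM in induced mutant, with induced wild type A inside the vehicle range.

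MAD1L1 encodes MAD1, a kinetochore protein of the spindle assembly checkpoint, which holds cells in mitosis until chromosomes are attached. It had 22.5, 22.9 and 30.5 FPKM with vehicle, 37.8, 51.2 and 49.0 FPKM in induced wild type and 73.0 and 61.2 FPKM in induced mutant. The groups did not overlap, and its ratio of mutant to vehicle means, 2.65, was the smallest of the 9. Low values of a library moved in steps shared by all its genes, so levels were not compared between genes.

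**Figure D1:**
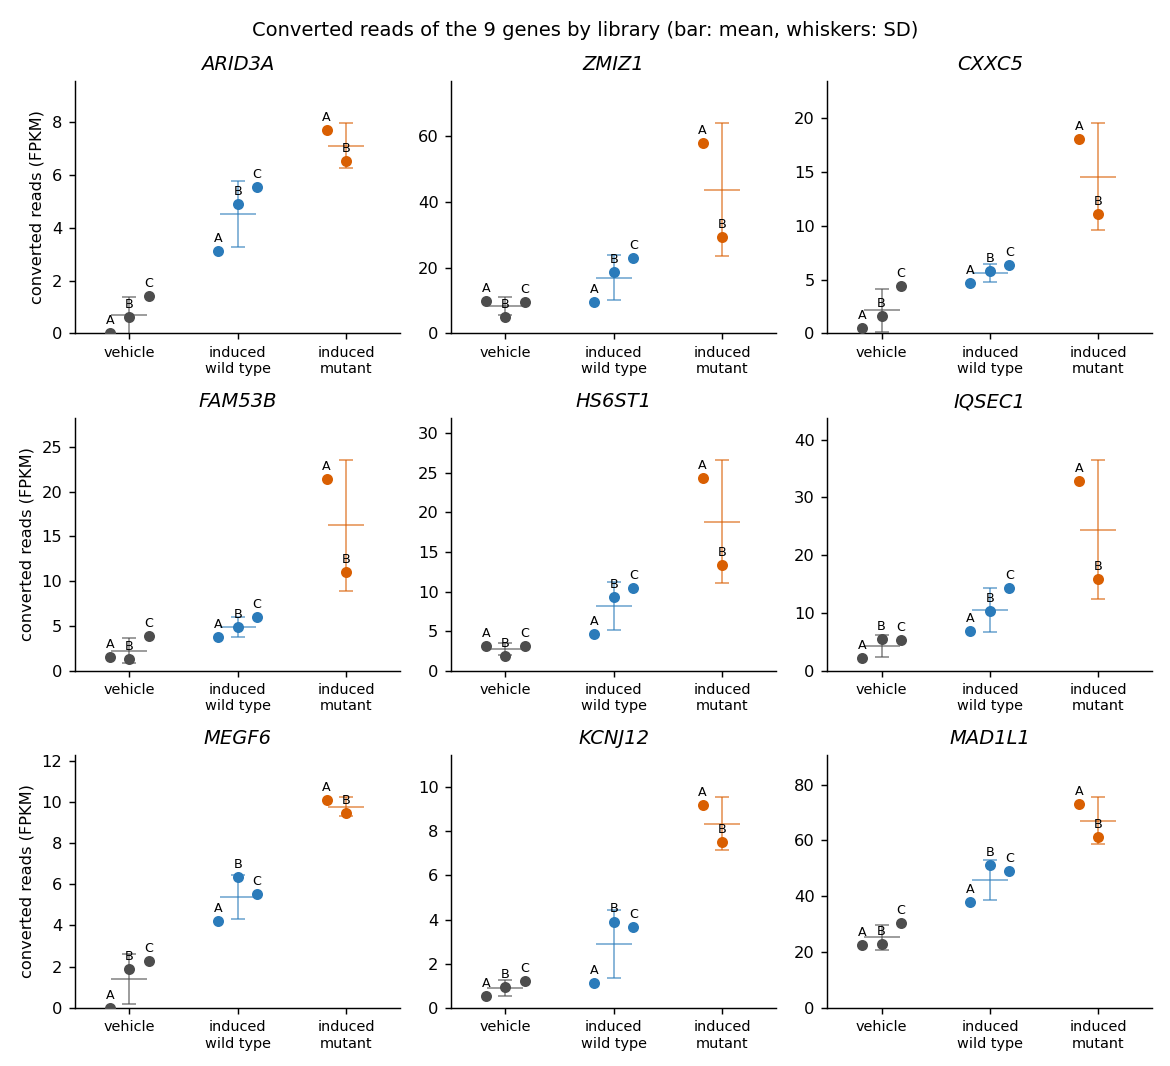
Converted reads (FPKM, vertical axis from 0, own scale per gene) of the 9 genes in vehicle, induced wild-type and induced mutant libraries. Points are libraries A to C, horizontal bars are group means and whiskers are SD (n = 3, 3 and 2). Both mutant points lie above all others in every panel, and mutant A is the highest point in 9 of 9.

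In the contrast of induced wild type with vehicle, which shares the vehicle libraries with the condition that chose the genes, 6 of the 9 genes were higher in all 3 wild-type libraries than in all 3 vehicle libraries, beside 10.7% of tested genes. These were ARID3A, CXXC5, HS6ST1, IQSEC1, MEGF6 and MAD1L1. The median difference of the 9 was 1.15 on the log2(FPKM + 1) scale, from 0.84 for MAD1L1 to 1.78 for ARID3A, beside 0.23 over all tested genes. In the contrast of induced mutant with induced wild type, which shares the mutant libraries with that condition, all 9 were higher in both mutant libraries than in all 3 wild-type libraries, beside 5.18% of tested genes. The median difference there was 1.13, from 0.54 for MAD1L1 to 1.50 for FAM53B, beside a median of -0.04 over all tested genes. Without mutant A this median of the 9 was 0.73.

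The induced wild-type mean lay between the vehicle and mutant means for 9 of 9 genes in converted reads. Over all tested genes the share was 43.9%, and over the 1172 genes that met the same condition it was 80.6%. Of the 27 wild-type values, 24 lay above all vehicle values and below both mutant values, and the exceptions were induced wild type A in ZMIZ1, FAM53B and KCNJ12. All 8 libraries were ordered vehicle, wild type, mutant for 6 genes, beside 1.13% of tested genes and 5.55% of those that met the condition. The wild-type mean stood 18.8% of the way from vehicle to mutant for FAM53B and 59.6% for ARID3A, with a median of 30.9% over the 9. MEGF6 at 47.4% and MAD1L1 at 49.5% were nearest to the middle, while ZMIZ1 at 24.7%, KCNJ12 at 26.9% and CXXC5 at 27.8% stood closer to vehicle.

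The mutant libraries differed from each other in their converted values. Mutant A was 2.07 times mutant B for IQSEC1, 1.98 times for ZMIZ1, 1.93 times for FAM53B and 1.82 times for HS6ST1, whereas it was 1.07 times for MEGF6 and 1.18 times for ARID3A. The median of this ratio over tested genes was 1.32 in converted reads. Without mutant A the median difference of the 9 between mutant and vehicle was 1.98, the lowest value when any library was left out. The means of the wild type stayed between the others for 9 of 9 genes in converted reads with any single library left out.

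At the edge of the condition, the smallest gap between the lowest mutant and the highest vehicle value among the 9 was 5.11 FPKM, in ARID3A. The gene nearest to the condition from outside, among those with a difference at least as large as that of MAD1L1, was ZFHX3, with 7.89 FPKM in vehicle C and 7.82 FPKM in mutant B. Of the 1172 genes that met the condition, 167 had a log2 difference of at least that of MAD1L1, 1.38.

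The 9 genes followed a common profile. Pearson correlations between pairs of them over the 8 libraries, given as a description, ran from 0.74 to 0.99 with a median of 0.93 over 36 pairs, and they share the libraries, their depth and the group order used to choose them. The 5 other tested genes most like their mean profile were GNG7 (r = 0.99), SH2B3 (r = 0.99), SS18L1 (r = 0.98), PDIA3 (r = 0.98) and MACROD1 (r = 0.98), each over 8 libraries. GNG7, a G-protein gamma subunit, had 3.66 to 5.96 FPKM with vehicle, 7.33 to 10.9 FPKM in induced wild type and 14.7 to 17.5 FPKM in induced mutant. SH2B3, an adaptor that restrains cytokine receptor signalling, had 0.53 to 2.27, 4 to 6.96 and 9.45 to 14.5 FPKM in the same groups. Both were ordered vehicle, wild type, mutant without overlap.

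Less of the difference was seen in all reads. By group means the 9 genes were 1.37 (HS6ST1) to 2.68 (ARID3A) times as high in induced mutant as in vehicle in CPM, with a median ratio of 1.67 where converted reads had 6.90. All genes but IQSEC1 were higher in both mutant libraries than in all vehicle libraries, 8 of 9, beside 4.58% of the 12414 genes tested in all reads. These reads include the converted ones and come from the libraries that chose the genes.

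ARID3A had 2.02, 3.13 and 4.45 CPM with vehicle, 4.52, 7.01 and 8.48 CPM in induced wild type and 10.6 and 6.55 CPM in induced mutant. The wild-type libraries lay above vehicle, and mutant B lay within the wild-type range. MAD1L1 had 37.0, 39.6 and 45.2 CPM with vehicle, 46.6, 57.1 and 61.2 CPM in induced wild type and 71.2 and 60.2 CPM in induced mutant, with the same pattern of overlap. KCNJ12 had 5.06, 10.2 and 8.96 CPM with vehicle, 10.8, 7.51 and 12.5 CPM in induced wild type and 19.6 and 14.9 CPM in induced mutant, and was the one gene whose mutant libraries both exceeded all wild-type libraries.

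ZMIZ1 had 14.2, 33.2 and 31.0 CPM with vehicle, 26.5, 27.9 and 56.7 CPM in induced wild type and 66.4 and 33.9 CPM in induced mutant, so that mutant B was barely above vehicle B. CXXC5 had 12.8, 17.9 and 17.1 CPM with vehicle, 17.2, 15.3 and 21.4 CPM in induced wild type and 29.3 and 21.3 CPM in induced mutant. FAM53B had 7.20, 15.1 and 13.9 CPM with vehicle, 15.8, 13.1 and 22.1 CPM in induced wild type and 31.2 and 19.7 CPM in induced mutant. For these 3 genes the wild-type libraries overlapped both other groups. HS6ST1 ranged from 21.7 to 34.4 CPM with vehicle, from 31.7 to 41.7 CPM in induced wild type and from 35.3 to 47.1 CPM in induced mutant, IQSEC1 from 12.0 to 27.05, from 22.4 to 38.8 and from 23.3 to 39.0 CPM, and MEGF6 from 4.72 to 6.71, from 5.38 to 10.1 and from 7.15 to 11.4 CPM. In IQSEC1 mutant B lay inside the vehicle range.

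**Figure D2:**
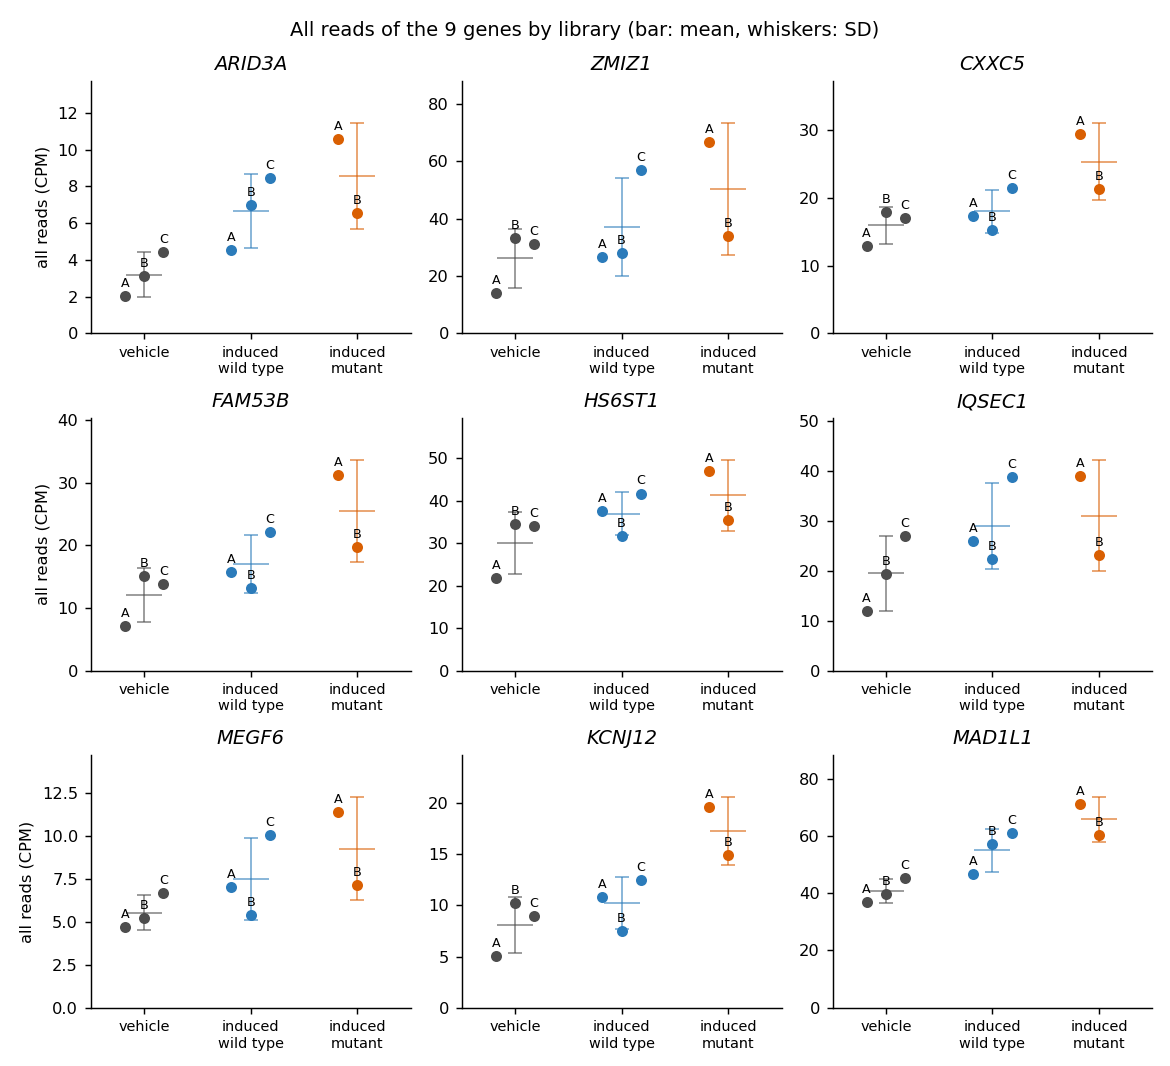
All reads (CPM, vertical axis from 0, own scale per gene) of the same 9 genes and libraries, with points, bars and whiskers as for converted reads (n = 3, 3 and 2). The groups overlap more than in converted reads, and mutant A is the highest point in each panel while mutant B often lies within the wild-type range.

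In all reads the contrasts that the condition did not use as such were tested, with the limit that each shares libraries with it. For induced wild type against vehicle, 0 of the 9 genes passed limma's test on log2(CPM + 1) after Benjamini-Hochberg adjustment over 12414 genes (adjusted p = 0.992 for each), beside 0% of tested genes. By limma, 2 of the 9 had an unadjusted p under 0.05, beside 116 of 12414 tested genes. These were ARID3A with a log2 difference of 0.87 (SE 0.31) and MAD1L1 with 0.42 (SE 0.16). edgeR's quasi-likelihood test and DESeq2 on the recovered reads also passed 0 of 9, and each had 1 gene at an unadjusted p under 0.05. ARID3A and MAD1L1 were higher in all wild-type than in all vehicle libraries, 2 of 9 genes beside 2.53% of tested genes, and their exact two-sided permutation p was 0.1, the smallest that 3 libraries against 3 allow. All 9 differences were above 0, as were 67.6% of all tested genes. The median of the 9 was 0.42, beside 0.09 over all tested genes. This median was 0.19 without vehicle A, 0.22 without induced wild type C and 0.28 with median centring.

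For induced mutant against induced wild type, 0 of 9 passed in all reads by limma (adjusted p = 0.9996 for each), beside 0.0322% of tested genes, and 0 of 9 by edgeR or DESeq2. By limma, 1 gene, KCNJ12, had an unadjusted p under 0.05, beside 341 of 12414 tested genes. Its log2 difference was 0.71 (SE 0.32). Both count tests had 3 of the 9 at an unadjusted p under 0.05. KCNJ12 was the 1 of 9 genes whose libraries did not overlap, beside 1.80% of tested genes, and its exact two-sided permutation p was 0.1, again the smallest that 2 libraries against 3 allow. The median difference of the 9 was 0.32 beside -0.12 over all tested genes, from 0.09 for IQSEC1 to 0.71 for KCNJ12. This median was 0.01 without mutant A and 0.63 without mutant B.

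The wild-type mean in all reads lay between vehicle and mutant for 9 of 9 genes, beside 31.0% of all tested genes and 78.0% of the 568 that were higher in both mutant than in all vehicle libraries. Without mutant A this held for 4 of 9. None of the 9 had all 8 libraries in the order vehicle, wild type, mutant in all reads, beside 0.105% of tested genes, and 7 of 27 wild-type values lay between the highest vehicle and the lowest mutant value. The wild-type mean stood 21.98% of the way for CXXC5 and 82.7% for IQSEC1, with a median of 52.3%.

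The conversion rate of the genes differed less still between groups. The rate is the deposited fraction, given here in percent, and its denominator is not given in the sources used here. Of rows with a single read, between 1339 and 1824 by library had a rate strictly between 0 and 1, so that it is not a share of reads. The mutant mean was 0.982 (CXXC5) to 2.33 (MEGF6) times the vehicle mean, with a median ratio of 1.10. Libraries of mutant and vehicle did not overlap for ZMIZ1, IQSEC1, MEGF6 and MAD1L1, 4 of 9 genes, beside 6.91% of the 12381 genes tested for the rate.

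MEGF6 had the widest separation of the 9 in this readout. Its rate was 1.83%, 4.43% and 5.64% in vehicle A, B and C, 6.67%, 6.59% and 7.15% in induced wild type and 8.84% and 9.68% in induced mutant. It was the 1 gene of the 9 with all 8 libraries in the order vehicle, wild type, mutant in the rate, beside 0.186% of tested genes. MAD1L1 had 5.88%, 7.24% and 8.55% with vehicle, 9.28%, 8.56% and 10.3% in induced wild type and 10.8% and 8.999% in induced mutant. Its wild-type libraries lay above vehicle, by a narrow margin for induced wild type B, and overlapped the mutant.

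HS6ST1 was at the other end. Its rate was 9.60%, 9.93% and 11.8% with vehicle, 11.5%, 10.6% and 11.9% in induced wild type and 11.2% and 10.0% in induced mutant, so all 3 groups overlapped while its converted reads were 6.90 times as high in mutant as in vehicle. CXXC5 had 8.79%, 11.1% and 11.0% with vehicle and 11.2% and 9.01% in induced mutant, FAM53B 9.09%, 11.2% and 10.3% with vehicle and 11.9% and 9.39% in induced mutant. ARID3A had a rate of 15.2% in vehicle A, from 18 reads, where its converted reads were listed at 0. MEGF6 had a rate of 1.83% in vehicle A, from 42 reads, where its converted reads were also listed at 0. The 2 deposited tables differ for ARID3A and MEGF6 in that library.

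By limma on log2(rate + 0.5), with the rate in percent, 0 of 9 genes passed for induced wild type against vehicle (adjusted p = 0.954 or higher), beside 0% of tested genes. At an unadjusted p under 0.05 was 1 gene, MEGF6, beside 367 of 12381 tested genes. The log2 difference of MEGF6 was 0.82 (SE 0.32). The wild-type libraries of MEGF6 and MAD1L1 lay above all vehicle libraries, 2 of 9, beside 5.25% of tested genes, at an exact two-sided permutation p of 0.1, the smallest possible. For induced mutant against induced wild type 0 of 9 passed by limma (adjusted p = 1 for each), beside 0.0162% of tested genes, and 0 had an unadjusted p under 0.05. MEGF6, with a log2 difference of 0.42 (SE 0.35), was the 1 gene of 9 without overlap, beside 3.21% of tested genes, at an exact two-sided permutation p of 0.1. The median differences of the 9 were 0.15 for wild type minus vehicle and 0.07 for mutant minus wild type, beside 0.13 and -0.07 over all tested genes. The first was 0.025 with median centring, 0.085 without vehicle B and 0.10 without induced wild type C. The second turned to -0.05 without mutant A and was 0.01 without induced wild type B, 0.04 without induced wild type A, 0.14 without induced wild type C and 0.15 without mutant B.

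In the rate the wild-type mean lay between vehicle and mutant for 5 of 9 genes, ZMIZ1, IQSEC1, MEGF6, KCNJ12 and MAD1L1, beside 30.3% of tested genes and 72.3% of those higher in both mutant than in all vehicle libraries. The number was 3 without mutant A. In ARID3A, FAM53B and HS6ST1 the wild-type mean was above both others, at 12.4%, 10.7% and 11.3%, and in CXXC5 it was 10.6% where vehicle and mutant had 10.3% and 10.1%. In level, the 9 genes had a median vehicle rate of 10.0% beside 6.05% over all genes tested for the rate, and 6 of them, ARID3A, ZMIZ1, CXXC5, FAM53B, HS6ST1 and KCNJ12, ranked above the 92nd percentile. MEGF6 was the exception, at 3.97% and the 25.7th percentile.

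**Figure D3:**
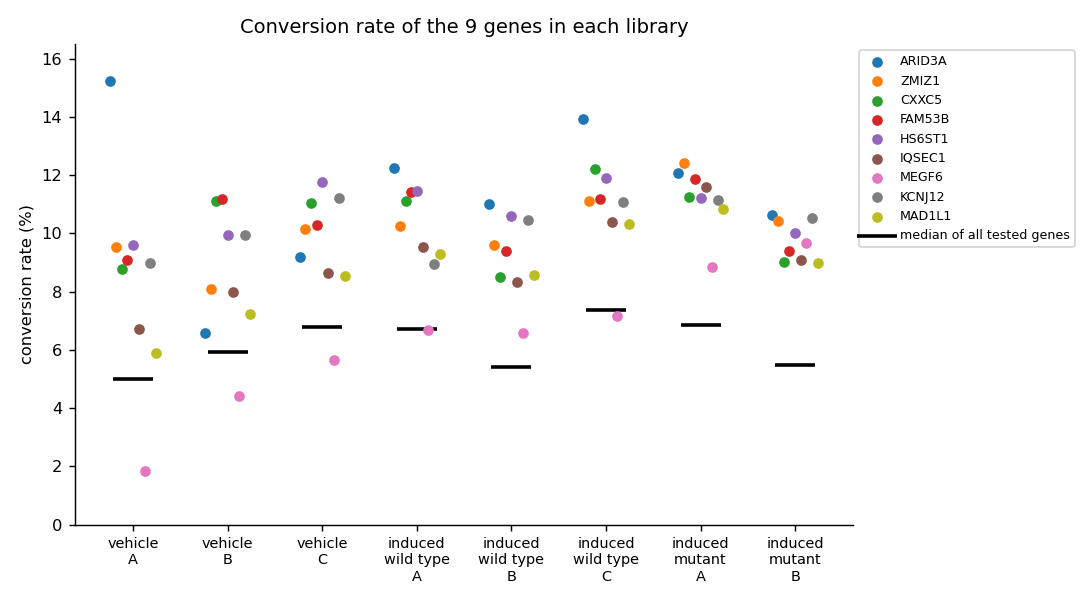
Conversion rate (%, vertical axis from 0) of the 9 genes in each of the 8 libraries on the horizontal axis, with a black bar for the median of all genes tested for the rate in that library. The median moves between 4.99% in vehicle A and 7.36% in induced wild type C. Most of the 9 genes lie above it in every library, and MEGF6 lies below it in all vehicle libraries and above it in both mutant libraries.

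A product of both readouts, CPM multiplied by the rate as a fraction and called new RNA here, was 1.39 (HS6ST1) to 3.66 (MEGF6) times as high in mutant as in vehicle, with a median ratio of 2.21. Because the rate is not a share of reads, new RNA is only a label for this product and not a measured amount. For converted reads, an unlike measure, the median ratio over the same libraries was 6.90. On the log2 scale the ratio of converted reads exceeded that of new RNA by a median of 1.70 over the 9 genes. This excess ran from 0.26 for MAD1L1, whose readouts came from different transcript rows, to 2.31. The median excess was 0.88 over the 1110 genes that met the condition and were tested in both, and 0.19 over all 5342 genes tested in both. Libraries of mutant and vehicle did not overlap in new RNA for 6 of 9 genes, beside 3.14% of the 9618 genes tested.

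Both contrasts of new RNA tested here share libraries with the condition, and CPM includes the converted reads that chose the genes. Counts above the share of tested genes can therefore come from that choice. For new RNA of induced wild type against vehicle, 0 of 9 passed by limma (adjusted p = 0.981 or higher), beside 0.0208% of tested genes. An unadjusted p under 0.05 was found for 4 of 9, beside 301 of 9618 tested genes. These were ARID3A with a log2 difference of 0.92 (SE 0.29), MEGF6 with 0.70 (SE 0.20), IQSEC1 with 0.59 (SE 0.21) and MAD1L1 with 0.55 (SE 0.20). 2 of 9, ARID3A and MAD1L1, did not overlap, beside 2.03% of tested genes. For induced mutant against induced wild type 0 of 9 passed by limma (adjusted p = 0.99999 for each), beside 0% of tested genes. An unadjusted p under 0.05 was found for 6 of 9, beside 284 of 9618 tested genes. KCNJ12 had the largest of these differences, 1.00 (SE 0.20), and was the 1 gene of 9 without overlap, beside 0.613% of tested genes. CXXC5 had a log2 difference of -0.06 (SE 0.17) in wild type against vehicle after median centring, and of 0.61 (SE 0.19) in mutant against wild type. The first turned to 0.20 without centring and to 0.02 without the filter, and its group means ran upward, from 1.67 with vehicle to 1.94 in induced wild type.

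**Figure D4:**
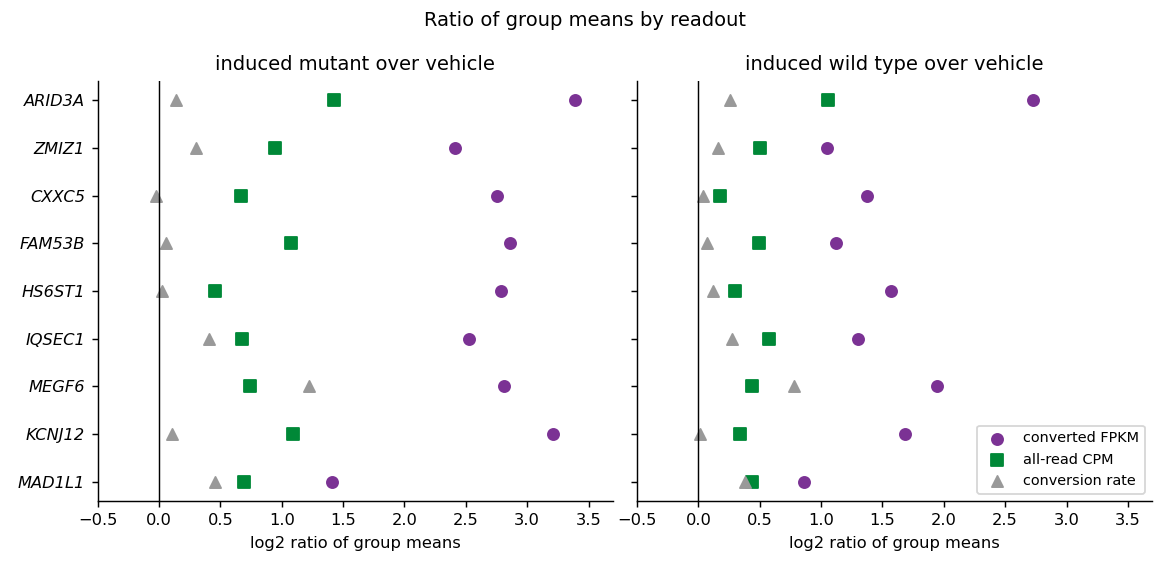
Log2 ratio of group means (horizontal axis) for each of the 9 genes (vertical axis) in converted FPKM, all-read CPM and conversion rate, for induced mutant over vehicle on the left and induced wild type over vehicle on the right. Points carry no error bar. In both panels converted reads lie farthest to the right for each gene, and the conversion rate lies near 0 for most genes, with MEGF6 as the exception at 1.22 and 0.78.

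Beyond the condition, the 9 genes all lay above the median of tested genes in span and in GC content. In span, CXXC5, KCNJ12, ARID3A and HS6ST1 were only at the 54.1st, 61.0th, 65.1st and 66.9th percentiles. Their transcripts spanned 35.6 kb (CXXC5) to 417 kb (MAD1L1) of the genome in GENCODE 29, with a median of 122 kb beside 31.6 kb over tested genes, and 9 of 9 were above that median. GC content of the transcript had a median of 60.9% beside 51.1%, again with 9 of 9 above, and the share of T, the base that can be converted, was 19.9% beside 23.8%, with 0 of 9 above. Exon number showed no such pattern, with 4 of 9 above the tested median. Across 5628 genes, which are not independent replicates, the difference between mutant and vehicle in converted reads had a Spearman correlation of 0.50 with span. The correlation was -0.12 with GC content, 0.11 with the share of T and 0.35 with transcript length. The 563 genes with the longest span had a median difference of 0.69. After each library's linear trend on log span was removed, the median difference of the 9 genes was 2.12. MAD1L1, the longest, went from 1.38 to 0.81 for mutant minus vehicle, from 0.84 to 0.54 for wild type minus vehicle and from 0.54 to 0.27 for mutant minus wild type. The part of span in the result was not tested further.

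**Figure D5:**
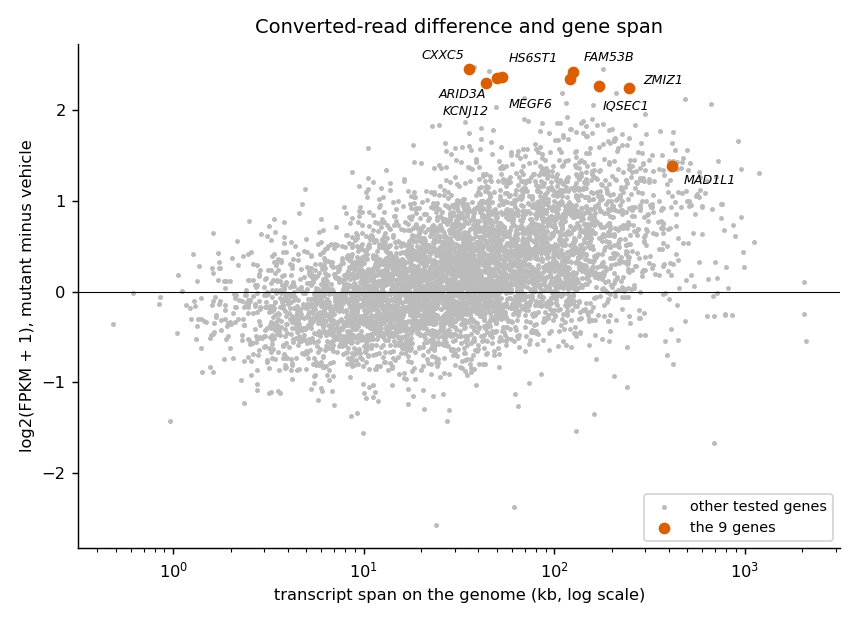
Difference between induced mutant and vehicle in converted reads on the log2(FPKM + 1) scale (vertical axis) against the span of the transcript on the genome (kb, log scale), with each tested gene as a grey point and the 9 genes in orange. Long genes tend to lie higher, and the 9 genes lie at the upper edge at their span, with MAD1L1 the longest and lowest of them.

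Promoter windows ran from 250 bases before to 50 after the gene start on GRCh38.p14. They are described for the 6 genes that had an entry in the RefSeq table of windows. These were CXXC5, FAM53B, HS6ST1, IQSEC1, MEGF6 and MAD1L1, and ARID3A, ZMIZ1 and KCNJ12 had no entry. The windows were rich in CpG, with a median of 41 CpG beside 28 over 4566 tested genes, and CXXC5 was lowest with 20 and FAM53B highest with 49. The GC box GGGCGG, searched on both strands, was in 5 of 6 windows, beside 72.7% of tested genes and 44.6% of all 27305 windows. Its number ran from 7 in HS6ST1 and 6 in MEGF6 to 0 in MAD1L1, which are printed below from 5′ to 3′ on the gene's strand, with GC boxes on either strand in capitals. HS6ST1 lies at chr2:128318819-128319118, MEGF6 at chr1:3611459-3611758 and MAD1L1 at chr7:2232896-2233195, all on the minus strand.
HS6ST1: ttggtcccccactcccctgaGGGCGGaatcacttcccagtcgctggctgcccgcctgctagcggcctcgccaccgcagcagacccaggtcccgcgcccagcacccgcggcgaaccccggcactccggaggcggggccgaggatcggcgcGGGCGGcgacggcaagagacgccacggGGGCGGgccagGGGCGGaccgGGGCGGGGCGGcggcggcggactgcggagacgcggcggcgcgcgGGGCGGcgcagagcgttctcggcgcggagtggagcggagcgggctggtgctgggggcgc
MEGF6: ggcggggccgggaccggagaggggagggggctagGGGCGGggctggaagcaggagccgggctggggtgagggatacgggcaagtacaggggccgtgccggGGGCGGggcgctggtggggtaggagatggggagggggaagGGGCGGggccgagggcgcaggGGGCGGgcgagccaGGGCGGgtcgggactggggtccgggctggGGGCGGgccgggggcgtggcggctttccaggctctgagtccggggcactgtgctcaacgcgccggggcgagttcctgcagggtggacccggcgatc
MAD1L1: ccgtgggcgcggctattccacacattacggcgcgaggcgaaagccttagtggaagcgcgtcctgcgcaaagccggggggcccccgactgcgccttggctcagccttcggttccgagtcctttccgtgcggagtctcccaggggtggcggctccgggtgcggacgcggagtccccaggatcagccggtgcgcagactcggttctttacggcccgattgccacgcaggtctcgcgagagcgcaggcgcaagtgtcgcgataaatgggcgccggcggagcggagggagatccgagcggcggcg
Adjacent GC boxes in HS6ST1 share bases and so form a longer run of capitals. The number of boxes did not order the genes by their ratio of converted reads in mutant to vehicle. HS6ST1 with 7 boxes had a ratio of 6.90 and MEGF6 with 6 had 7.01, while FAM53B with 2 had 7.26, CXXC5 with 1 had 6.73, IQSEC1 with 1 had 5.75 and MAD1L1 with 0 had 2.65. Of the 6 windows, 0 held the ETS core CCGGAAG (22.8% of tested genes), 0 a palindromic EBF1 site (1.45%), 0 the E-box CAGCTG (16.1%) and 0 the TATA box TATAAA (4.58%), each searched on both strands. A match is a description of the letters in this window and not a measured binding site.

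Relatives of the 9 genes were taken from 9 lists of 110 genes by domain, enzyme family or complex. Of these, 52 were tested in converted reads and 78 in all reads. In converted reads 42 of 52 were above 0 in mutant minus vehicle, 46 of 52 in wild type minus vehicle and 28 of 52 in mutant minus wild type, beside 62.9%, 73.0% and 46.1% of all tested genes. By limma 0 of 52 passed in either direction in each of these comparisons. At an unadjusted p under 0.05 were 10, 11 and 2, beside 678, 455 and 169 of all 5737 tested genes.

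Among genes of the ARF GTPases and their exchange factors, the family of IQSEC1, 10 of 10 tested genes were above 0 in mutant minus vehicle. Their median log2 difference was 0.75, beside 0.17 over all tested genes. In wild type minus vehicle 10 of 10 were above 0 too, with a median of 0.58 beside 0.23. The smallest p in this list was that of ARFGEF2, a Golgi exchange factor, with 0.91 ± 1.08 FPKM with vehicle, 5.81 ± 1.98 FPKM in induced wild type (SD, n = 3 each) and 6.33 ± 1.12 FPKM in induced mutant (SD, n = 2). Its log2 difference between mutant and vehicle was 2.09 (SE 0.48, limma adjusted p = 0.0801). In heparan sulfate synthesis, the pathway of HS6ST1, 5 of 7 tested genes were above 0 in mutant minus vehicle, with a median of 0.50. In wild type minus vehicle 7 of 7 were, with a median of 0.085. XYLT1, which starts the chain on the core protein, had a log2 difference between mutant and vehicle of 1.51 (SE 0.40, limma adjusted p = 0.115). Of the ARID genes, relatives of ARID3A, 9 of 9 were above 0 in mutant minus vehicle, with a median of 0.69. In wild type minus vehicle 8 of 9 were, with a median of 0.63. ARID1B, a subunit of the SWI/SNF remodeller, had a log2 difference between mutant and vehicle of 0.99 (SE 0.33, limma adjusted p = 0.228).

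In the spindle checkpoint list, to which MAD1L1 belongs by function, 8 of 13 tested genes were above 0 in mutant minus vehicle. Their median was 0.04, beside 0.17 over all tested genes. In wild type minus vehicle it was also 8 of 13, with a median of 0.08 beside 0.23. SPC24, a kinetochore subunit, had the smallest p in mutant minus vehicle, with a log2 difference of 1.10 (SE 0.50, limma adjusted p = 0.408). Among CXXC zinc finger genes 5 of 8 were above 0 in mutant minus vehicle and 8 of 8 in wild type minus vehicle. Among the relatives of ZMIZ1 it was 3 of 3 in both, with medians of 0.82 and 0.92. KCNJ14 was the 1 inward rectifier tested beside KCNJ12 and had a log2 difference between mutant and vehicle of 0.0042 (SE 0.47). In all reads 36 of 78 list genes were above 0 in mutant minus vehicle, 66 of 78 in wild type minus vehicle and 16 of 78 in mutant minus wild type, where 42.5%, 67.6% and 26.7% of all tested genes were. By limma 0 of 78 passed in all reads, and by edgeR and DESeq2 0 of 79 passed in each comparison. At an unadjusted p under 0.05 by limma were 1, 0 and 1, beside 467, 116 and 341 of all 12414 tested genes.

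Several of the genes overlap others, and whether the counting used strand is not given in the sources used here. CXXC5 overlaps CXXC5-AS1, FAM53B overlaps FAM53B-AS1 and another antisense gene, and ARID3A and MAD1L1 each overlap 1 antisense gene. On their own strand, FAM53B overlaps a protein-coding gene, ARID3A a sense intronic gene and IQSEC1 a processed pseudogene. MEGF6 and MAD1L1 contain the microRNA genes MIR551A and MIR4655. For MAD1L1 the transcript row with the highest mean was NM_001013836 in converted reads and NM_003550 in all reads, while the other 8 genes had the same transcript in both.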

How the data were processed

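SLAM-seq libraries of NALM6 RNA (3 vehicle, 3 induced wild type, 2 induced mutant) were grouped by their labels. The genome build was hg19 (GRCh37) per the submitters' processing notes, and for the aligner, conversion caller, counting region and strand use the answer is not given in the sources used here. All reads were deposited as CPM per RefSeq transcript, treated as a signal because transcripts of a gene repeat reads, and 100% of values were whole multiples of 1 read within 0.1 read. The conversion rate was deposited as a fraction per transcript. Converted reads were deposited as FPKM, and 93.1% to 99.3% of low values (up to 4 FPKM) lay within 0.1 step of multiples of a step of 0.175 to 0.524 FPKM by library, so the values are coarse where low.

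Of 61177 rows of all reads, 25396 lacked a symbol and were named through RefSeq (GRCh38.p14, names only) where they matched. A gene took its row with the highest mean, except that rows without a deposited symbol did not compete with those that had one. Genes with a mean of at least 1 FPKM or CPM (at least 0.2 for new RNA, the product of CPM and the rate as a fraction) were fitted with limma 3.58.1 in R 4.3.3 over all 8 libraries without a covariate, on log2(value + 1), log2(rate in percent + 0.5) or log2(new RNA + 0.1) with each library's median set to 0. Fold changes of low genes on these scales are understated. The planned design was kept, and edgeR 4.0.16 and DESeq2 1.42.0 were run on the recovered reads as alternatives. P-values were adjusted by Benjamini and Hochberg's method across every gene tested in that comparison, with 0.05 as the threshold. Exact permutation tests used scipy 1.17.1, and the fit was tested on simulated data. Tables were handled with pandas 2.3.3 and numpy 2.4.6 in Python 3.11.15 and drawn with matplotlib 3.10.9. Spans, GC and T content came from GENCODE 29 for 98.1% of the 5737 tested genes, joined by the RefSeq transcript of the gene's row.

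The named genes are the 9 genes, HMGN1, the 5 tested genes most correlated with their mean profile, the list genes that passed or else the one with the smallest p in a list, of which some are given here, and the gene nearest to the condition from outside. The members and lists were chosen with earlier results of these data known. Alternatives changed the pseudocount, filter, row, scaling, samples, replicate letter and gene span and left out each library in turn.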

Additional observations from a re-analysis of the deposited data

How the results depend on the processing

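With 2 or 3 libraries a group, single libraries weigh heavily, and the mutant line has no vehicle libraries here. Over all alternatives the number of the 9 genes that passed in the tested comparisons of all reads, conversion rate and new RNA was 0. With a pseudocount of 0.1 the median difference of the 9 genes in converted reads between mutant and vehicle was 2.89, and with a pseudocount of 0.5 in new RNA it was 0.85. Without median centring, new RNA had 0.64 for wild type minus vehicle and 0.41 for mutant minus wild type. With 1 library left out in turn, the medians ranged from 0.45 to 1.03 for mutant minus vehicle, from 0.19 to 0.54 for wild type minus vehicle and from 0.0129 to 0.63 for mutant minus wild type in all reads, from 0.085 to 0.22 for wild type minus vehicle and from -0.054 to 0.15 for mutant minus wild type in the conversion rate, from 0.73 to 1.54 for mutant minus wild type in converted reads, and from 0.81 to 1.28 for mutant minus vehicle and from 0.28 to 0.62 for wild type minus vehicle in new RNA. The number of genes with the wild-type mean in between ranged from 4 to 9 in all reads and from 3 to 7 in the conversion rate, both lowest without mutant A. The cause was not tested.

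Differences of single genes that changed sign did not pass in the tested fits. With median centring the conversion rate of wild type minus vehicle was -0.0975 for CXXC5, -0.064 for FAM53B, -0.012 for HS6ST1 and -0.112 for KCNJ12, and that of mutant minus wild type was 0.0107 for CXXC5 and 0.0567 for FAM53B. IQSEC1 in all reads was -0.0234 for mutant minus wild type with transcript rows summed. CXXC5 in new RNA was 0.0219 for wild type minus vehicle without the filter and 0.20 without centring. With 1 library left out, mutant minus wild type in all reads ranged from -0.0535 to 0.35 for HS6ST1, -0.27 to 0.45 for IQSEC1, -0.0216 to 0.58 for MEGF6 and -0.038 to 0.91 for ZMIZ1, each negative without mutant A. In the conversion rate it ranged from -0.21 to 0.0966 for CXXC5, -0.17 to 0.15 for FAM53B, -0.0428 to 0.29 for IQSEC1 and -0.054 to 0.20 for MAD1L1. For wild type minus vehicle the rate ranged from -0.0759 to 0.17 for CXXC5, -0.0125 to 0.15 for FAM53B and -0.0591 to 0.1 for KCNJ12, and new RNA from -0.15 to 0.0382 for CXXC5 and -0.0068 to 0.22 for KCNJ12.

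Libraries with the same letter did not deviate together (correlations from -0.23 to 0.29 in converted reads and from -0.65 to 0.65 in all reads), so letters were not taken as pairs. With the replicate letter as a block, the medians for mutant minus vehicle were 2.52 in converted reads and 0.91 in all reads, those for mutant minus wild type were 1.31 and 0.51, and the rate of mutant minus wild type was 0.0221 for CXXC5 and 0.0127 for FAM53B. No call changed.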

Other observations

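When converted FPKM values were divided by the library's step and set against the gene's reads, the 9 genes had a median of 3.11, 4.19 and 8.91 steps per 100 reads with vehicle, 8.47, 13.3 and 13.1 in induced wild type, and 23.6 and 18.1 in induced mutant, in the order of the replicate letters. Over 4736 genes with at least 50 reads in each library, the medians were 2.16, 3.53 and 4.21 with vehicle, 4.08, 3.63 and 5.85 in induced wild type and 5.45 and 3.65 in induced mutant. What a step of the FPKM table counts is not given in the sources used here. In vehicle C the values ran from 2.98 steps per 100 reads for HS6ST1 to 21.7 for MAD1L1. The steps and the reads of MAD1L1 came from different transcript rows, so its values are not those of 1 transcript.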
